A study of Mus musculus with 24 samples.

Results

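The genes described are 10 glutamate receptor subunits of the mouse, taken by symbol from the 33000 genes of the deposited count table. All 10 were found once each. They are the 4 AMPA receptor genes Gria1, Gria2, Gria3 and Gria4, the 3 NMDA receptor genes Grin1, Grin2a and Grin2b, and the 3 metabotropic receptor genes Grm2, Grm3 and Grm5. They were measured in 24 libraries of frontal cortex RNA from mice aged 3 months, 3 wild-type (WT) C57BL/6 mice and 3 homozygous for the GFAP-IL6 transgene. The paper names the strain for the WT mice only. The transgene puts the cytokine IL-6 under the promoter of Gfap, an astrocyte gene, and the mice model chronic inflammation of the brain. Every mouse gave 4 libraries from the same RNA, so the mouse is the replicate. The libraries were made by 3'Pool-seq, which reads 1 tag near the 3' end of a transcript, and the amplified cDNA was fragmented by tagmentation with an input of either 2 ng or 1 ng. Each amount was used in a set A and a set B, and the labels do not say how A and B differ. The series was made to tune the cDNA amount, and the same libraries allow the genotypes to be compared.

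Glutamate is the main excitatory transmitter of the cortex. AMPA receptors are tetramers of GluA1 to GluA4 that carry fast synaptic current, and NMDA receptors pair the obligatory GluN1 subunit with GluN2 subunits and act as coincidence detectors that let calcium into the cell. Metabotropic receptors are coupled to G proteins, the group II receptors mGluR2 and mGluR3 inhibiting adenylyl cyclase and the group I receptor mGluR5 activating phospholipase C.

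The libraries held 1524165 to 12256374 counts, and the 4 libraries of a mouse summed to between 7852743 (WT mouse 3) and 37582644 (GFAP-IL6 mouse 3). Il6 itself averaged 0.142 ± 0.132 CPM (counts scaled to a common library size, with TMM factors) in the WT mice and 2.99 ± 1.33 in the GFAP-IL6 mice (SD, n = 3 each). Gfap rose by 2.44 ± 0.18 (SE) on the log2 scale, to 110 ± 33.4 CPM, so both lay in the direction the labels give. The summed CPM of 7 neuron markers, Snap25 and Rbfox3 among them, ranged from 7089 to 7770 in WT and from 6660 to 7379 in GFAP-IL6 mice, and 0 of the 7 passed the genotype test. The markers of excitatory cortical neurons summed to 381 to 431 CPM in WT and 363 to 421 in GFAP-IL6 mice. The 6 microglia markers summed to 212 to 235 CPM in WT and 321 to 418 in GFAP-IL6 mice. Of these, 5 rose at an adjusted p under 0.05 in edgeR, where 1.8% of all genes passed, and for 2 of them, C1qa and Aif1, the log2 fold change was also above 1. WT mouse 3 stood apart, with 4076 CPM over 4 choroid plexus markers against 81.2 to 754 in the other 5 mice. It was also the shallowest mouse, and the values that rest on it are given below with and without it.

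The tags fall near the 3' end, so the 3' UTR and the last exon matter most for what was counted. The last exon of Grm3 is only 301 nt long, so its tags can also fall upstream of it. The study counted reads on an earlier GENCODE release than the one used here for positions. On mm10, in GENCODE vM21, Gria1 lies at chr11:57011387-57330244 on the plus strand, with a 3' UTR of 2597 nt. Gria2 lies at chr3:80681450-80802835 on the minus strand, and a 3' UTR of 7268 nt fills its last exon. Gria3 lies at chrX:41400854-41678601 on the plus strand and Gria4 at chr9:4417896-4796234 on the minus strand. Grin1 lies at chr2:25291181-25319187, Grin2a at chr16:9567898-9995560 and Grin2b at chr6:135713233-136173511, all on the minus strand. The 3' UTRs of these NMDA genes differ widely, with 1187 nt in Grin1, 9929 nt in Grin2a and 18865 nt in Grin2b. Grm2 lies at chr9:106643095-106656082 and Grm3 at chr5:9485541-9725170, both on the minus strand, and Grm5 at chr7:87584168-88134907 on the plus strand.

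The gene models limit some of these values. The last exons of Grin1, Grin2b and Grm2 overlap a gene on the other strand (Grin1os, Gm14329 and Gm28111). Whether reads were assigned by strand is not given in the sources used here, so reads of such a pair cannot be told apart. The table gives Grm5 a length of 3612 nt, less than its last exon in vM21 (4927 nt), which was thus not counted in full. All its exons in vM21 cover 10247 nt. The gap was also wide for Grin1 (4368 against 9700 nt), Gria3 (5437 against 9859 nt) and Gria2 (10486 against 15548 nt). These lengths cover all exons, and where in the gene the gap lies, or what signal it cost, was not tested. For Grm3 the RefSeq gene ends 305 nt beyond the GENCODE end. How much of the signal in the last exon of Grm5 and at the longer 3' end of Grm3 was counted was not tested. Of the words of 70 nt, the length of a read, in the exons of any member in vM21, 0 occurred in another member. This covers exact matches of full length only, and reads that were trimmed or aligned with mismatches were not tested.

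Gria2 and Grin2b carried most of the signal. Gria2 averaged 669 ± 61.6 CPM and Grin2b 612 ± 49.6 CPM (SD over 6 mice), more than 98.8% and 98.7% of all genes tested. Together they made up 63.1% to 66.6% of the summed CPM of the 10 members. Their ranges over the mice overlapped, although within a mouse Gria2 stood above Grin2b in all but WT mouse 3 (672 against 697 CPM). Their order also moved with the set. In 2 ng A Gria2 averaged 747 CPM and Grin2b 454, and in 1 ng B 645 and 694 CPM. Next came Grin1 at 182 ± 14.0, Grin2a at 137 ± 17.1, Gria3 at 124 ± 14.8 and Gria1 at 114 ± 6.78 CPM, and each overlapped its neighbour in this order. Grm3 followed at 62.8 ± 7.13 CPM, apart from both of its neighbours. Gria4 at 40.3 ± 7.52 and Grm2, with 24.2 to 32.7 CPM over the mice, overlapped each other, and Grm5 was lowest at 3.15 ± 1.06 CPM, above only 20.3% of the genes tested. The gene model counted for Grm5 is shorter than its last exon in vM21, and how many of its tags were missed was not tested.

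The order depends on the scale. Since a transcript gives 1 tag whatever its length, the study applied no length correction, and CPM is the scale used for differences here. Divided by the length in the deposited table, Gria2 stayed first at 63.8 CPM per kb, Grin1 came next at 41.6 and Grin2b after it at 24.7. On this scale Grm3 reached 20.6 CPM per kb, beside Gria3 at 22.9 and Gria1 at 19.6, while Grin2a fell to 9.16. Gria4, Grm2 and Grm5 kept the last 3 ranks, at 6.56, 6.15 and 0.871 CPM per kb. With the exon length of vM21 in its place, a choice made after the data were seen, Gria2 was again first at 43.0 CPM per kb, Grin2b came next at 24.7 and Grm3 after it at 20.6, while Grin1 fell to 18.7 and Gria3 to 12.6.

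**Figure D1:**
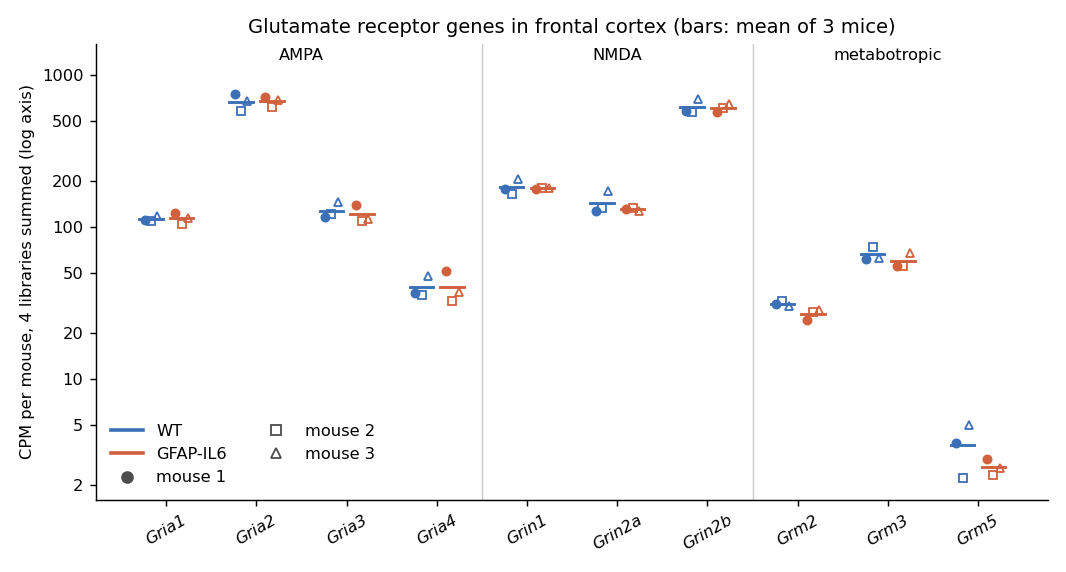
CPM of each gene in each mouse, 4 libraries summed, on a log axis, with WT in blue, GFAP-IL6 in orange, a marker shape for each mouse number and a bar at the mean of 3 mice. The genotypes overlap for 9 of the 10 genes, and for Grm2 the 3 GFAP-IL6 mice (24.2 to 28.3) lie under the 3 WT mice (30.2 to 32.7).

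None of the 10 receptor genes changed with genotype by the thresholds of the study. With the 4 libraries of each mouse summed, 0 of 10 had an adjusted p under 0.05 in edgeR's quasi-likelihood test with Benjamini-Hochberg adjustment, with or without the threshold of 1 on the absolute log2 fold change. Of all 14621 genes tested, 1.23% were called with that threshold and 1.8% without it. DESeq2 also called 0 members, and 1 member, Grm2, had an unadjusted p under 0.05 in edgeR, against 8.75% of all genes. The log2 fold changes of GFAP-IL6 against WT ran from -0.44 for Grm5 to 0.01 for Gria1. Their median was -0.06, against -0.01 over all genes tested, and 7 of the 10 were below 0, against 51.9% of all genes. Their median absolute size was 0.06, against 0.11 over all genes. In bulk tissue, fewer cells that express a gene and less RNA per cell cannot be told apart.

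The 4 AMPA receptor genes did not differ between the genotypes beyond the spread of the mice. Gria1, which codes for GluA1, a subunit trafficked to synapses during plasticity, stood at 112, 110 and 118 CPM in WT mice 1 to 3 and at 124, 104 and 115 CPM in GFAP-IL6 mice 1 to 3. The GFAP-IL6 mice lay on both sides of the WT range. Its log2 fold change was 0.01 ± 0.09 (SE), with a 95% interval from -0.17 to 0.20.

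Gria2 codes for GluA2, the subunit that sets calcium permeability. It stood at 747, 583 and 672 CPM in WT and at 713, 612 and 687 CPM in GFAP-IL6 mice. All 3 transgenic mice fell inside the WT range, and the interval of the log2 fold change was -0.21 to 0.22. In the 4 sets taken alone its log2 fold change stayed between -0.01 and 0.02, the narrowest span of any member.

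Gria3 stood at 117, 122 and 145 CPM in WT and at 140, 109 and 113 CPM in GFAP-IL6 mice. Of the transgenic mice 2 lay under the WT range and 1 inside it, and the log2 fold change of -0.08 had an interval from -0.31 to 0.15. Gria4, a subunit of fast receptors in interneurons, stood at 37.0, 35.7 and 47.7 CPM in WT and at 51.6, 32.7 and 37.3 CPM in GFAP-IL6 mice. GFAP-IL6 mouse 1 was the highest of all 6 mice and mouse 2 the lowest, so the interval was wider, from -0.31 to 0.34.

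The AMPA genes share a short stretch of coding sequence at the pore, shown here because it carries the glutamine codon (in capitals) whose editing in Gria2 makes the channel impermeable to calcium. The coding strand of mm10 with the exons of GENCODE vM21 reads as follows, 30 nt from each gene.
Gria1: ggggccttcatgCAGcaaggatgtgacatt
Gria2: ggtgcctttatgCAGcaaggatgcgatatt
Gria3: ggtgcttttatgCAGcaaggatgtgatatt
Gria4: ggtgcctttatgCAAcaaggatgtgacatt
The stretch lies at chr11:57243082-57243111 in exon 11 of 16 of Gria1, at chr3:80706896-80706925 in exon 11 of 16 of Gria2, at chrX:41610253-41610282 in exon 11 of 16 of Gria3 and at chr9:4464122-4464151 in exon 12 of 17 of Gria4. Against Gria2, the stretch differs at 4 positions in Gria1, 2 in Gria3 and 3 in Gria4. These exons lie far from the 3' end that was read, and a count per gene holds no base calls, so the levels above say how much Gria2 was counted and not how much was edited.

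The NMDA receptor genes did not pass the genotype test either, and WT mouse 3 was the highest mouse for each of them. Grin1, the subunit that every NMDA receptor holds, stood at 178, 166 and 208 CPM in WT and at 179, 180 and 180 CPM in GFAP-IL6 mice. The transgenic mice lay within 1 CPM of their mean, with an SD of 0.493, and inside the WT range. On the log2 scale GFAP-IL6 stood at -0.04 ± 0.09 against WT, with an interval from -0.23 to 0.16.

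Grin2a codes for GluN2A, the subunit that dominates adult synapses. It stood at 127, 133 and 172 CPM in WT and at 131, 133 and 127 CPM in GFAP-IL6 mice. Apart from WT mouse 3, the mice of both genotypes lay within the same narrow range. The log2 fold change was -0.14 ± 0.10 with all mice, with an interval from -0.36 to 0.09, and 0.01 without WT mouse 3.

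Grin2b codes for GluN2B, the subunit with slower closing that prevails early in development. It stood at 583, 571 and 697 CPM in WT and at 572, 609 and 642 CPM in GFAP-IL6 mice. The genotypes overlapped, and the log2 fold change of -0.02 had an interval from -0.22 to 0.18. Without WT mouse 3 the log2 fold change of Grin2b was 0.08 and that of Grin1 0.06, so the sign of both rested on that mouse, as did that of Gria3 (0.01 without it). The markers of the choroid plexus that set this mouse apart were high in it together with these genes, and their part was not tested.

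The 3 metabotropic genes were all lower on average in the GFAP-IL6 mice, and none passed the adjusted threshold. Grm2, a group II autoreceptor that limits glutamate release, stood at 31.0, 32.7 and 30.2 CPM in WT and at 24.2, 27.6 and 28.3 CPM in GFAP-IL6 mice. It was the only member whose genotypes did not overlap, every transgenic mouse lying under every WT mouse. Over all genes, 5.94% separated in this direction, 8.43% in the other and 14.4% in either. The log2 fold change was -0.22 ± 0.10, a fold of 0.856, and edgeR gave an unadjusted p of 0.0497, with an interval from -0.45 to just under 0. The adjusted p was 0.569 in edgeR, and it ranged from 0.447 to 0.847 over the alternatives tried. Grm2 was below 0 in each of the 4 sets, from -0.42 to -0.14, but these sets share the mice.

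Grm3, the group II receptor found in astrocytes as well as neurons, stood at 61.1, 74.1 and 62.6 CPM in WT and at 55.8, 55.6 and 67.5 CPM in GFAP-IL6 mice. Of the transgenic mice 2 lay under the WT range and 1 inside it. Its log2 fold change was -0.14 ± 0.11, with an interval from -0.37 to 0.09. Single mice moved it from -0.05, without WT mouse 2, to -0.25, without GFAP-IL6 mouse 3. WT mouse 2 was also the highest of the 6 in the summed CPM of 6 striatal markers, at 275 against 144 to 194 in the others, and the part of this was not tested. The 6 astrocyte markers, by contrast, summed to 2865 to 2963 CPM in WT and 3152 to 3374 CPM in GFAP-IL6 mice. Most of that sum was Aldoc, with means of 1672 CPM in WT and 1886 CPM in GFAP-IL6 mice. Aldh1l1 was the 1 marker that was lower, at 53.3 and 49.7 CPM. Of the 6 markers 0 passed the test, and 2 had an unadjusted p under 0.05 in edgeR, where 8.75% of all genes did. The part of these markers in the level of Grm3 was not tested.

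Grm5 had the largest log2 fold change of the 10 and the widest error. It stood at 3.80, 2.21 and 4.98 CPM in WT and at 2.95, 2.35 and 2.59 CPM in GFAP-IL6 mice. These values rest on few reads, 38 to 73 counts in a WT mouse and between 28 and 100 in a transgenic one, and all 3 transgenic mice lay inside the WT range. Without WT mouse 3, the highest of the 6, the log2 fold change was -0.21. With all mice, the value of -0.44 ± 0.30 had an interval from -1.08 to 0.20. How much of this width came from counting and how much from the spread between mice was not tested.

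Taken 1 set at a time, the genotype comparison called 0 of the 10 members in each of the 4 sets by edgeR with Benjamini-Hochberg adjustment, and DESeq2 called 0 as well. The share of all genes called with the fold threshold was 0.681% in the set 2 ng A, 0.774% in 1 ng A, 0.744% in 2 ng B and 0.755% in 1 ng B. Without the fold threshold it was 1.03%, 1.1%, 1.08% and 1.08%, in the same order. At an unadjusted p under 0.05 edgeR gave 1 member in 2 ng B, again Grm2, where 6.77% of all genes passed. In the other 3 sets it gave 0 members, where 7.59% of all genes passed in 2 ng A, 7.34% in 1 ng A and 6.98% in 1 ng B. Grin2a, Grm2, Grm3 and Grm5 were below 0 in all 4 sets, but these sets share the same mice. The other 6 members took both signs, Gria4 from -0.14 in 2 ng A to 0.16 in 1 ng A. Summed per mouse, the sign of Grin2a rested on WT mouse 3, with a log2 fold change of 0.01 without it.

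**Figure D2:**
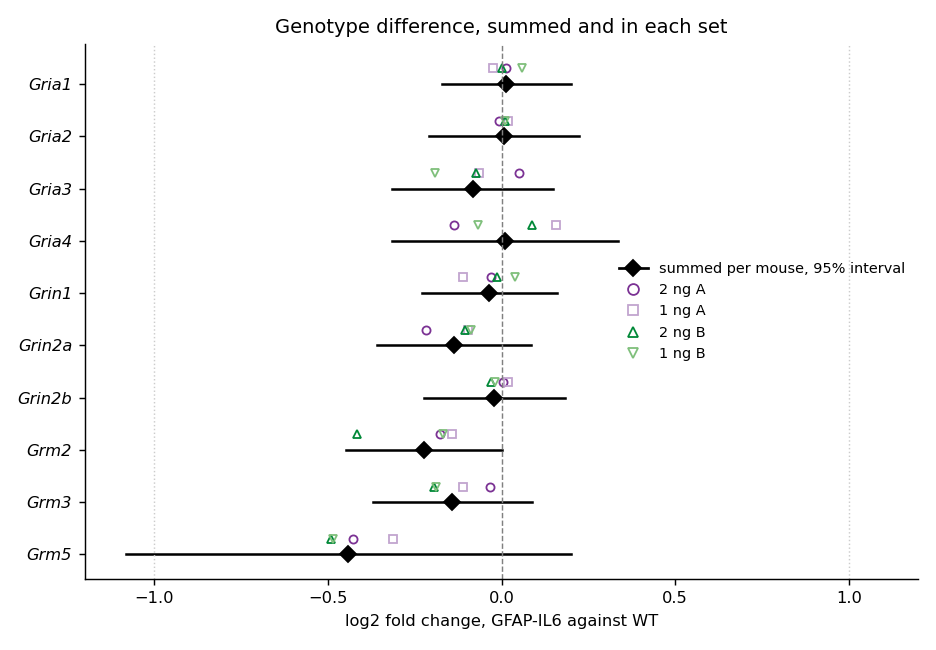
Log2 fold change of GFAP-IL6 against WT, with black diamonds and 95% intervals for libraries summed per mouse and open symbols for the 4 sets. Every interval except that of Grm2 spans 0, that of Grm5 is the widest (-1.08 to 0.20), and the dotted lines mark the threshold of 1 on either side.

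More members passed the test for cDNA amount, which compares libraries of the same mouse, than that for genotype, which compares mice. The same held over all genes, with 26.1% called for amount and 1.8% for genotype, so it is not particular to the members. Between 2 ng and 1 ng, within mice and over all 24 libraries, 3 of 10 members were called by edgeR's quasi-likelihood test with Benjamini-Hochberg adjustment, where 26.1% of 13249 genes were called. At an unadjusted p under 0.05 it was 4 of 10, where 35.6% of all genes passed. Grin2b and Gria2 were lower with 2 ng and Grm3 was higher, where 13.2% of all genes were called lower and 12.9% higher. The median log2 fold change of the members was 0.00, against 0.02 over all genes. In the method as the study describes it, samples are pooled after reverse transcription and the pool is tagmented as a whole. If the 6 libraries of a set were 1 pool, which the labels do not state, each amount had 1 reaction in A and 1 in B. The p-values then rest on the spread of the differences within mice, and the reaction is not the replicate. In the fit over all libraries that spread also holds any change of the amount effect between the letters. Within a letter the amount and the reaction cannot be told apart.

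Grin2b was the member that moved most, and it was lower with 2 ng in 6 of 6 mice within both letters. With the letters averaged, 27.5% of all genes had a difference of the same sign in every mouse. In set A its lowest, median and highest library stood at 401, 450 and 526 CPM with 2 ng and at 625, 702 and 773 CPM with 1 ng. In set B the same values were 505, 515 and 633 CPM with 2 ng and 644, 671 and 777 CPM with 1 ng. In both letters all 6 libraries with 2 ng lay under all 6 with 1 ng, WT and GFAP-IL6 alike. The log2 fold change was -0.50 ± 0.03 over all libraries, a fold of 0.709, with an adjusted p of 5.16e-20 in edgeR, and 94.1% of all genes moved less.

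The size of the change in Grin2b differed between set A and set B. In fits of each letter alone, added after the data were seen, the log2 fold change in the A sets was -0.65, with a 95% interval from -0.70 to -0.60. In the B sets it was -0.36, with an interval from -0.40 to -0.31. A test of the difference between the letters, added likewise, gave -0.28 ± 0.04 with an adjusted p of 1.74e-10 in edgeR.

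Gria2 was lower with 2 ng in the B sets only. Its lowest, median and highest library stood at 486, 554 and 611 CPM with 2 ng B and at 561, 660 and 716 CPM with 1 ng B, lower with 2 ng in 6 of 6 mice. In the A sets the values were 661, 757 and 847 CPM with 2 ng and 635, 737 and 847 CPM with 1 ng, nearly the same range. The log2 fold change was -0.12 ± 0.03 over all libraries (adjusted p 0.000580 in edgeR) and -0.25 in the B sets alone. In the A sets alone it was not told from 0, with an interval from -0.05 to 0.04. The difference between the letters was 0.26 ± 0.03, with an adjusted p of 5.18e-11 in edgeR.

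Grm3 was higher with 2 ng, and it was called in the A sets alone and not in the B sets alone. Its lowest, median and highest library stood at 64.4, 71.7 and 80.6 CPM with 2 ng A and at 45.4, 58.3 and 63.9 CPM with 1 ng A, ranges that did not overlap. In B they stood at 52.6, 66.1 and 72.1 CPM with 2 ng and at 49.8, 58.2 and 78.9 CPM with 1 ng, which overlapped. Its log2 fold change was 0.18 ± 0.05 over all libraries (adjusted p 0.00557 in edgeR), 0.29 in A alone and 0.07 in B alone. The difference between the letters did not pass the test for Grm3, at 0.23 ± 0.10 with an adjusted p of 0.109 in edgeR and an interval from 0.04 to 0.42.

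Gria1 sat at the threshold, with a log2 fold change of -0.10 ± 0.04 and an adjusted p of 0.0522 in edgeR. It was called in the B sets alone, at -0.16 with an adjusted p of 0.00548 in edgeR, and in the A sets alone it stood at -0.04. For Gria3, Gria4, Grin1, Grin2a and Grm2 the log2 fold changes over all libraries lay between -0.09 and 0.06 and were not called. Grm5, with 2 to 40 counts per library, had an interval from -0.40 to 0.53.

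In all, 2 of 10 members were called in the A sets alone, where 29.8% of all genes were, and 3 of 10 in the B sets alone, where 19.8% were. Ranges of the 6 mice that did not overlap between amounts occurred for Grin2b and Grm3 in A and for Grin2b in B, against 7.78% and 3.71% of all genes. In the test of the difference between the letters, 2 of 10 members were called, Grin2b and Gria2, and 11.1% of all genes were. At an unadjusted p under 0.05 it was 4 of 10 members, Grm2 and Grm3 being the others, and 21.6% of all genes.

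**Figure D3:**
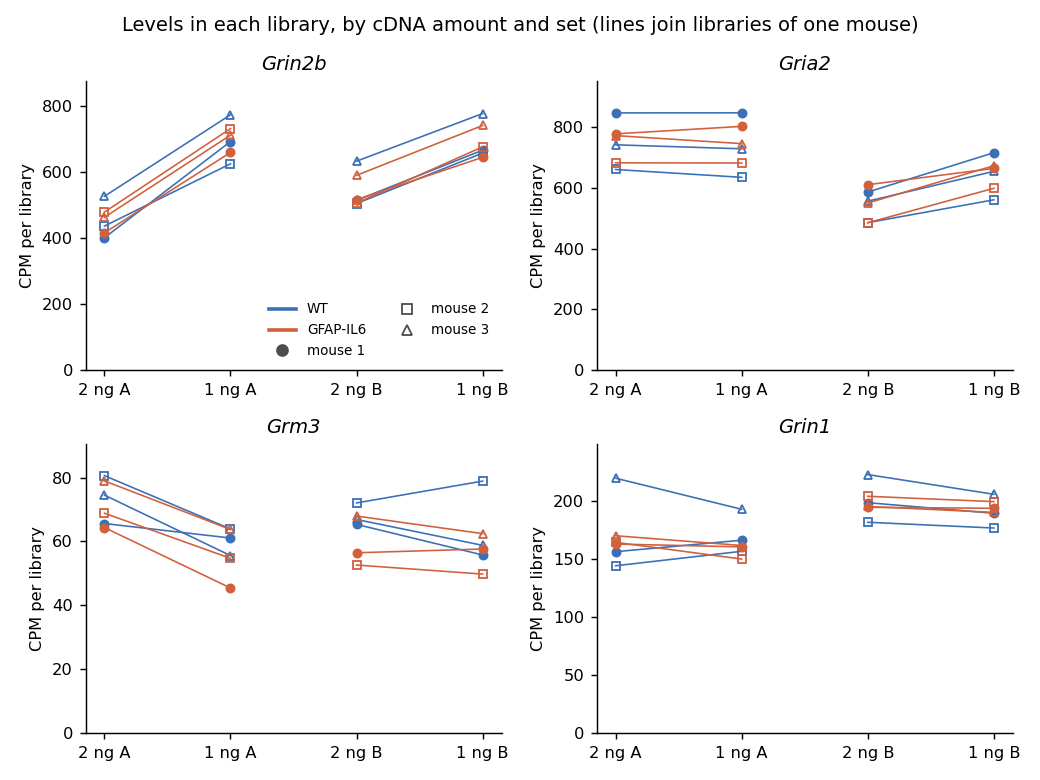
CPM of Grin2b, Gria2, Grm3 and Grin1 in each of the 24 libraries, by cDNA amount and set, with lines that join the 2 ng and 1 ng libraries of a mouse within a letter. Every Grin2b line rises from 2 ng to 1 ng in both genotypes, and all 6 Gria2 lines rise in set B (median 554 to 660), against 2 of 6 in set A (median 757 to 737).

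Set A and set B also differed, in the same mice and at the same amounts. With mouse and amount in the model, 4 of 10 members were called by edgeR's quasi-likelihood test with Benjamini-Hochberg adjustment, where 26.2% of all genes were. At an unadjusted p under 0.05 it was 5 of 10, where 36.9% of all genes passed. Gria2 and Gria3 were higher in A, where 13.8% of all genes were called, and Grin1 and Grin2b were lower, where 12.4% were. Gria2 was higher in A in 6 of 6 mice, with a log2 fold change of 0.32 ± 0.03, a fold of 1.25 and an adjusted p of 1.07e-13 in edgeR. With the amounts averaged, 23.6% of all genes had a difference of the same sign in every mouse. The limit on reactions given above applies to the letters as well.

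At 2 ng the difference in Gria2 was wider than at 1 ng, by the same 0.26 that the test of amount and letter gave above. The 6 libraries of 2 ng A (661 to 847 CPM) lay above all 6 of 2 ng B (486 to 611 CPM), where 8.13% of all genes separated so, and the log2 fold change was 0.47. At 1 ng it was 0.20, and the ranges of A (635 to 847 CPM) and B (561 to 716 CPM) overlapped, as did those of the other 9 members, where 0.972% of all genes separated.

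Grin1 differed between the letters by nearly the same size at both amounts. Its lowest, median and highest library stood at 144, 164 and 220 CPM in 2 ng A and at 182, 197 and 223 CPM in 2 ng B. With 1 ng the values were 150, 161 and 193 CPM in A and 177, 192 and 206 CPM in B. It was lower in A in 6 of 6 mice at each amount, and WT mouse 3 was the highest mouse in all 4 sets. Its log2 fold change was -0.24 ± 0.03 over all libraries (adjusted p 5.46e-08 in edgeR), -0.25 at 2 ng and -0.24 at 1 ng.

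Gria3 was higher in A by 0.15 ± 0.04 on the log2 scale (adjusted p 0.00384 in edgeR) and Grin2b lower, at -0.12 ± 0.03 (adjusted p 0.00262 in edgeR). Both were called in the 2 ng sets alone and not in the 1 ng sets alone. Gria3 stood at 0.22 at 2 ng and at 0.08 at 1 ng, and the difference between the amounts did not pass for it (adjusted p 0.288 in edgeR). Grin2b stood at -0.26 at 2 ng and at 0.01 at 1 ng. In the 2 ng sets alone 7 of 10 members were called, Gria2, Gria3, Grin2a, Grm2 and Grm3 higher in A and Grin1 and Grin2b lower, where 31.6% of all genes were. In the 1 ng sets alone it was 2 of 10, Gria2 and Grin1, where 5.15% of all genes were.

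**Figure D4:**
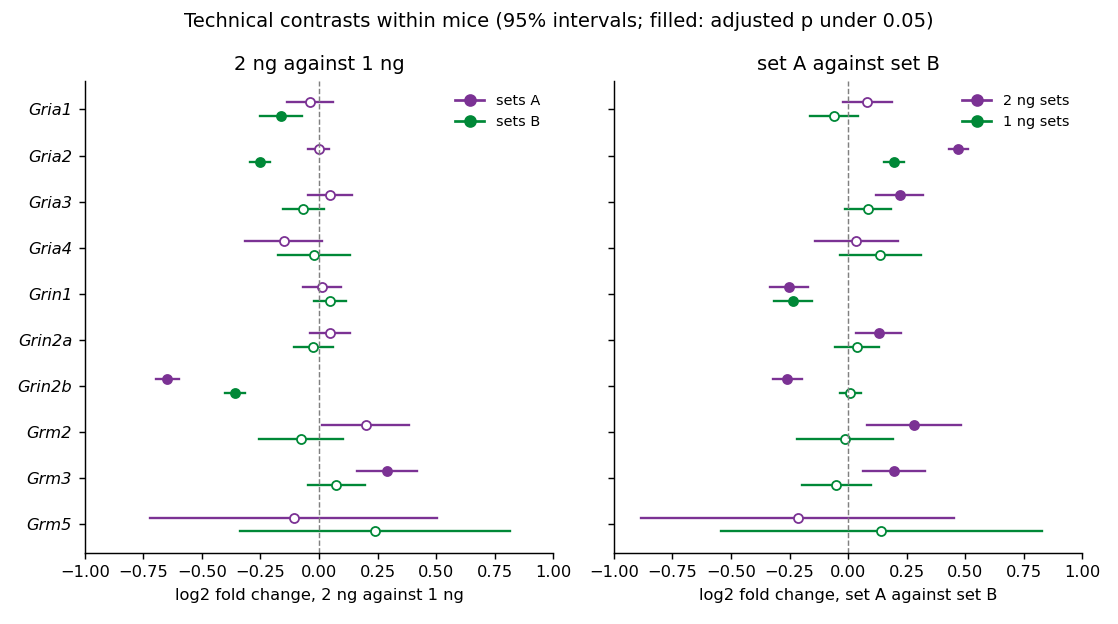
Log2 fold change with its 95% interval for 2 ng against 1 ng, in the A and B sets apart, and for set A against set B, in the 2 ng and 1 ng sets apart. Filled points have an adjusted p under 0.05. Grin2b is lower with 2 ng in both letters (-0.65 and -0.36), Gria2 in B only (-0.25), and Grin1 is lower in A at both amounts (-0.25 and -0.24).

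The genotype difference was not seen to depend on the cDNA amount. The interaction of genotype and amount was called for 0 of 10 members by edgeR with Benjamini-Hochberg adjustment, and for 0 of all 13249 genes (0%). At an unadjusted p under 0.05 it was 0 of 10 members and 2.02% of all genes, and DESeq2 called 0 members. For Grin2b, which moved most with amount, the interaction was -0.01 on the log2 scale, with an interval from -0.14 to 0.12. For Gria2 it was -0.01, with an interval from -0.13 to 0.10.

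The balance of AMPA subunits overlapped between the genotypes. Gria2 made up 73.8%, 68.5% and 68.4% of the AMPA CPM in WT and 69.3%, 71.3% and 72.2% in GFAP-IL6 mice. The share of Gria3 ranged from 11.5% to 14.8%, and that of Gria4 ranged from 3.66% to 5.02% over the 6 mice. Per kb of gene length Gria2 made up 56.5% on average, Gria3 20.3%, Gria1 17.4% and Gria4 5.79%. The 4 genes together summed to 949 ± 85.9 CPM in WT and 946 ± 85.5 CPM in GFAP-IL6 mice, and the 3 NMDA genes to 945 ± 115 and 917 ± 33.2 CPM. Without WT mouse 3 the WT mean of the NMDA sum was 879 CPM, below that of the GFAP-IL6 mice, so its direction rested on that mouse. The difference in the AMPA sum also took both signs as single mice were left out, with WT means of 917 to 997 CPM and GFAP-IL6 means of 905 to 991 CPM. The share of Gria2 also moved with the set, from 67.7% on average in 2 ng B to 72.4% in 2 ng A.

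The ratio of Grin2a to Grin2b, a measure of the GluN2 switch that cortex goes through as it matures, was 0.218, 0.233 and 0.246 in WT and 0.230, 0.218 and 0.198 in GFAP-IL6 mice. The genotypes overlapped, and their mean log2 ratios differed by -0.11, against a pooled SD of 0.10. Without WT mouse 3 the difference was -0.07, and without GFAP-IL6 mouse 3 it was -0.05. Per kb of gene length the ratio averaged 0.371. It varied more between sets than between the mice of a set. In 2 ng A the ratio averaged 0.321 ± 0.034 over the 6 mice, in 2 ng B 0.248 ± 0.028, in 1 ng A 0.197 ± 0.013 and in 1 ng B 0.193 ± 0.015. All 6 libraries of 2 ng A lay above all 12 made with 1 ng. Only in 2 ng A did the genotypes separate, with 0.319 to 0.364 in WT and 0.278 to 0.307 in GFAP-IL6 mice, a separation noticed among 4 sets and not tested.

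**Figure D5:**
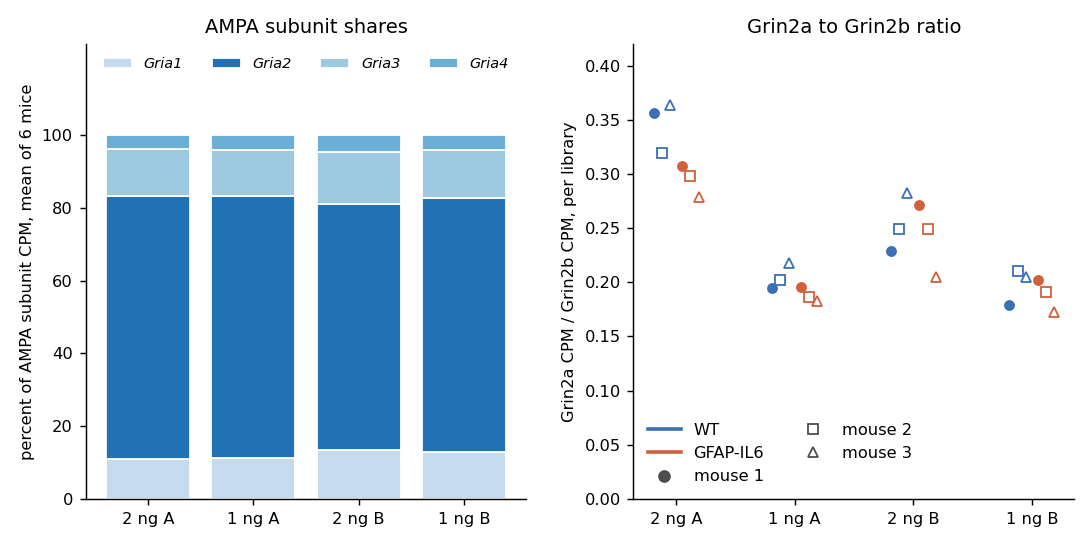
Left, mean share of each AMPA gene in the summed AMPA CPM of a library, by set (6 mice each), with Gria2 at 72.4% in 2 ng A and 67.7% in 2 ng B. Right, Grin2a CPM divided by Grin2b CPM in each library, where 2 ng A averages 0.321 and the sets with 1 ng 0.197 and 0.193.

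No other gene of the glutamate pathway lists passed the genotype test. Of 10 other ionotropic subunits tested, kainate, delta and further NMDA subunits, 0 passed in edgeR with Benjamini-Hochberg adjustment, where 1.8% of all genes passed. The most abundant were Grik5, a kainate receptor subunit, at 29.2 ± 4.02 CPM in WT and 30.6 ± 2.28 in GFAP-IL6 mice, and Grik3 at 17.5 ± 2.76 and 16.1 ± 1.57. Of 4 other metabotropic receptors 0 passed, and the most abundant, the presynaptic group III receptor Grm7, stood at 41.1 ± 1.86 and 42.2 ± 3.92 CPM, with Grm8 next at 16.7 ± 2.23 and 17.2 ± 2.38.

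The partners of the receptors did not pass the genotype test either. Of 13 auxiliary subunits 0 passed, with Cacng3, a TARP that carries AMPA receptors to the membrane, at 237 ± 16.1 CPM in WT and 215 ± 7.31 in GFAP-IL6 mice, and the cornichon Cnih3 at 71.5 ± 7.10 and 64.3 ± 1.86. Of 21 scaffold and trafficking genes 0 passed, with Nsf, an ATPase that binds GluA2, at 588 ± 52.6 and 561 ± 21.5 CPM and the kinase subunit Camk2b at 430 ± 21.8 and 393 ± 15.2. Of 9 genes of glutamate transport and metabolism 0 passed, with the astrocyte transporters Slc1a2 at 667 ± 50.1 and 719 ± 7.80 CPM and Slc1a3 at 304 ± 2.33 and 327 ± 25.6. Over all genes 1.8% passed the adjusted test, so few calls would be found in lists of this size. In each of these 5 lists 0 genes had an unadjusted p under 0.05 in edgeR, where 8.75% of all genes did. The median log2 fold change of a list ran from -0.13 for the auxiliary subunits to 0.04 for the ionotropic subunits and for the transport and metabolism genes.

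Between 2 ng and 1 ng the postsynaptic partners passed in both directions, more of them lower. Of 21 scaffold and trafficking genes 8 were lower and 3 higher with 2 ng by edgeR with Benjamini-Hochberg adjustment, and of 12 auxiliary subunits 6 were lower and 1 higher, where 13.2% of all genes were called lower and 12.9% higher. Of the 10 ionotropic subunits 2 were lower and 0 higher, of 9 transport and metabolism genes 1 was lower and 1 higher, and of 4 metabotropic receptors 0 passed (0 also at an unadjusted p under 0.05). The 3 scaffold and trafficking genes that were higher with 2 ng were Shank3 at 0.35, Camk2b at 0.12 and Nsf at 0.09 on the log2 scale. Of the lower ones, Dlgap3 stood at -0.79, Dlg4, which codes for PSD-95, at -0.69 and Camk2a at -0.51, so the 2 CaMKII subunit genes were called in opposite directions. The auxiliary subunit Cnih2 stood at -0.54. These 7 genes were named after their values were seen, and the lower ones for the size of their difference.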

How the data were processed

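Frontal cortex RNA of 6 mice was sequenced by 3'Pool-seq in 24 libraries, 4 per mouse. The authors trimmed poly(A) tails, used STAR 2.4 to place reads on mm10 and featureCounts to assign them to genes. The deposited values are raw counts with no scaling. The submitters' processing notes also list hg19, and the study's methods give mm10 for mouse. The methods name no molecular identifiers, so PCR copies were counted as reads.

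Counts were summed per mouse for the genotype comparison (3 against 3) and also tested set by set. The tests used edgeR 4.0.16 (TMM, its default expression filter, quasi-likelihood test, Benjamini-Hochberg adjustment over all genes tested) in R 4.3.3, with DESeq2 1.42.0 and limma 3.58.1 as alternatives. A gene was called at an adjusted p under 0.05 and, for genotype, an absolute log2 fold change above 1. The cDNA amount and the set letter were fitted over the 24 libraries with the mouse as a block. Levels are TMM-scaled CPM, and single differences within a mouse used a pseudocount of 0.5 CPM. The 4 libraries of a mouse are technical repeats of its RNA. The depth was 1524165 to 12256374 counts per library.

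Alternatives were another size factor, no low-count filter or at least 10 counts in every library, leaving out each mouse, and a replicate block. Replicate numbers did not pair WT with GFAP-IL6 mice. Named were all 10 members, Il6 and Gfap, and from each pathway list the genes called for genotype or, with none, the 2 of highest mean CPM. The members and lists were chosen with earlier results of these data known. Fits within a letter or amount, the test of amount by letter, levels per kb of vM21 exon length and the ratio and class sums without each mouse were added after the data were seen. The scripts were tested on simulated data.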

Additional observations from a re-analysis of the deposited data

Results flagged for a closer look

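The change of Grin2b with cDNA amount differed between the A and the B sets in the test of that difference, by -0.28 on the log2 scale (A minus B), and that of Gria2 differed by 0.26 in the other direction. Gria2 was lower with 2 ng in 6 of 6 mice in B and in 2 of 6 in A.

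A single mouse stood away from the others in 2 of the 20 groups of 6 mice examined, where chance gives such a gap in about 5% of groups. For Gria1, WT mouse 1 had a log2 difference of 0.113 between set A and set B, against -0.0304 to -0.00332 in the other 5 mice. For Grin2b, GFAP-IL6 mouse 2 had a log2 difference of 0.0167 between set A and set B, against -0.204 to -0.136 in the other 5 mice.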

How the results depend on the processing

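The count of members called for genotype stayed at 0 under every alternative tried, summed and set by set. For cDNA amount 3 to 4 members were called when 1 mouse was left out, where 2716 of 12988 to 3284 of 13221 genes were. For set letter it was 4 to 5 members, where 2769 of 12988 to 3320 of 13221 genes were. Without the mouse block (no replicate block) set A against set B gave 2 members, where 2160 of 12758 genes were called. With 2 ng sets alone it gave 7, where 31.6% of all genes were called, and with 1 ng sets alone 2, where 5.15% were. Ranking per kb moved 5 members, with the deposited and with the vM21 length. The difference in the log2 ratio of Grin2a to Grin2b was -0.23 in 2 ng A alone and -0.16 to -0.053 with 1 mouse left out, and the mean share of Gria2 was 67.7% in 2 ng B alone.

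Same-numbered WT and GFAP-IL6 mice did not deviate together (r of -0.0489, -0.0322 and -0.0335). With the numbers as a replicate block 0 members were called for genotype and 150 genes in all, against 180 without it, and no member's call changed.

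Several members near 0 changed sign. For genotype, Gria4 stood at -0.0022 with the replicate block and -0.018 in limma-voom, Grin1 at 0.0038 and Grin2b at 0.039 in limma-voom. With 1 mouse left out, the genotype value ran from -0.048 to 0.075 for Gria1, -0.083 to 0.096 for Gria2, -0.20 to 0.015 for Gria3, -0.18 to 0.14 for Gria4, -0.11 to 0.062 for Grin1, -0.22 to 0.0067 for Grin2a and -0.077 to 0.079 for Grin2b. Grm2 (-0.27 to -0.17), Grm3 (-0.25 to -0.049) and Grm5 (-0.73 to -0.21) kept their sign. For amount it ran from -0.029 to 0.025 for Gria3 and -0.050 to 0.20 for Grm5, and for letter from -0.019 to 0.011 for Gria1 and -0.26 to 0.15 for Grm5. For amount, Gria3 stood at 0.047 and Grm5 at -0.11 in the A sets alone, and Grin2a at -0.024 and Grm2 at -0.078 in the B sets alone. For letter, Gria1 stood at -0.0038 in DESeq2, -0.0029 with its size factors and -0.059 at 1 ng, where Grin2b stood at 0.0093, Grm2 at -0.014, Grm3 at -0.050 and Grm5 at 0.14. The cause was not tested.

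Gria2 lost its call for amount without the mouse block (adjusted p 0.162 in edgeR), and Gria3 and Grin2b lost theirs for letter (0.107 and 0.111). Gria1 passed for amount in DESeq2 (adjusted p 0.0445) and in edgeR without GFAP-IL6 mouse 2 (0.0468), and Grin2a for letter without GFAP-IL6 mouse 1 (0.0465). Over all genes, the calls for genotype ran from 106 without GFAP-IL6 mouse 3 to 245 with no filter on low counts. Grm5 had the fewest counts, 2 to 40 per library.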
